A study of Mus musculus with 30 samples.

Results

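The protein components of the cytosolic ribosome were followed as a group in 18 mRNA libraries of 2 mouse haematopoietic stem and progenitor cell lines. Members were taken by gene symbol: Rpl or Rps followed by a number and optionally a, l, x or y, together with Rplp0, Rplp1, Rplp2 and Rpsa. Pseudogene copies (symbols with -ps), the Rps6k kinases and Rps27l were left out. The rule found 82 of the 50686 genes in the count files, 51 of the large subunit and 31 of the small subunit. It is a rule of spelling, so it passes over some ribosomal genes with other names (Rack1, Fau) and takes in tissue-restricted paralogs such as Rpl3l and Rpl10l.

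The lines were HPC7 and HPCLSK. Each carried a retroviral vector that held no STAT3 insert (labelled dsRed, empty vector), STAT3, or STAT3Y640F, a form known to be active without a cytokine signal because of a change in the SH2 domain. There were 6 groups of 3 libraries. The labels give no treatment and no sorting. Stem cell factor in Iscove's medium was used for both lines, and agarose-coated plates for HPCLSK. The labels name no change to the endogenous Stat3 gene, which was expressed with empty vector in both lines. By their labels the HPC7 libraries are of strain 129SV and those of HPCLSK of C57BL/6N. C57BL/6N is also the label on the HPC7 chromatin samples, so the strain of HPC7 is uncertain. The file headers show that each line was sequenced in a run of its own. Line, any strain difference and sequencing run therefore cannot be told apart. The series text calls the libraries technical replicates, so p-values measure only the spread between these libraries.

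Cytosolic ribosomes join a small subunit, which decodes the mRNA, to a large subunit, which forms the peptide bond and holds the exit tunnel. Their proteins are made in matched amounts, and their mRNAs are known for short 5′ leaders that open with a run of pyrimidines, the 5′ terminal oligopyrimidine (TOP) motif, through which mTORC1 and Larp1 control translation. In blood progenitors the dose of ribosomal proteins is known to matter: loss of one copy of genes such as RPS19 or RPS14 in humans causes failure of red cell production.

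The stretch around the annotated start site was searched for runs of pyrimidines. RefSeq (GRCm38.p6) held the region around the start for 60 of the 82 members. The following 30-base windows hold 15 bases before the annotated first base and are written 5′ to 3′ on the gene's strand. The longest unbroken run of C and T anywhere in the window is in capitals. It can lie before the annotated start, as in Rpl34, and so need not be part of the mRNA or a TOP motif. They are shown for the 4 members on chromosome 2 that were higher together in HPC7 with Y640F (Rpl7a, Rpl12, Rpl35, Rps21), for 2 members that were lower with Y640F in HPCLSK (Rps24, Rpl15), and for the member that differed most between the lines (Rpl34).
Rpl7a, chr2:26910792-26910821, + strand: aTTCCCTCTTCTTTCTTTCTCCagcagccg
Rpl12, chr2:32961697-32961726, + strand: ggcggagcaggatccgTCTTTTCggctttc
Rpl35, chr2:39005117-39005146, - strand: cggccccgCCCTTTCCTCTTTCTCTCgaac
Rps21, chr2:180257364-180257393, + strand: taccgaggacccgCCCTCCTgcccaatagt
Rps24, chr14:24490663-24490692, + strand: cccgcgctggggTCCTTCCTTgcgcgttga
Rpl15, chr14:18270972-18271001, - strand: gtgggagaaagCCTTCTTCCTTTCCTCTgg
Rpl34, chr3:130730384-130730413, - strand: cgCCTTCCCTgacgtacttcctgtccggcg
The runs in these windows were 21 bases in Rpl7a, 18 in Rpl35, 17 in Rpl15, 9 in Rps24, 8 in Rpl34, and 7 in both Rpl12 and Rps21. A run of at least 8 anywhere in the window was found in 24 of the 60 members (40.0%) and in 11.9% of all 27025 gene starts in the table. The annotated first base was C in 33.3% of members and 16.2% of all starts. In the window from 250 bases before to 50 bases after the start, on both strands, the ETS-family core CCGGAAG was present in 38.3% of members and 9.12% of all. The STAT core TTCNNNGAA was present in 3 members (5.0%) and 8.47% of all, and the E-box CACGTG in 8.33% and 7.24%. These matches describe letters in a window and were not tested as binding sites.

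The libraries held between 9537258 and 38556669 counts. Levels are counts scaled to a common library size (CPM), by the TMM method over all 18 libraries, and 3 counts correspond to 0.0778 to 0.315 CPM. Stat3 itself had mean CPM of 225, 996 and 669 in HPC7 with empty vector, STAT3 and Y640F, and 355, 599 and 1901 in HPCLSK, so the form of STAT3 and the level of its RNA change together. All 12 stem and progenitor markers, Kit, Gata2 and Runx1 among them, were at 5 CPM or more in every library. The 5 B cell markers were under 1 CPM in every library. Replicate libraries differed by more than counting noise: the chi-square of their counts, divided by its degrees of freedom, was 2.49 to 27.0. The HPCLSK Y640F library of replicate 1 stood farthest from its group, at 21.2 and 27.0 against the other two.

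The members' mRNA was a small and uneven part of the counts. Summed over the 82 genes, the members held 1.42 to 1.59% of counts in the HPC7 libraries and 1.45 to 2.11% in the HPCLSK libraries. Rpl4 alone gave 15.2% of the members' counts, Rps3 gave 10.9% and Rpl8 9.06% (Rps3 is named here after its value was seen). Per kilobase of annotated exon, high levels averaged over all libraries were 1716 CPM per kb for Rpl8, 1672 for Rplp1, a protein of the acidic stalk that recruits elongation factors, 1255 for Rpl4 and 825 for Rps15.

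At the other end, 11 members that had counts stayed under 5 CPM on average. These include genes that every ribosome needs. Rps6, the substrate of the S6 kinases, averaged 3.76 CPM, and Rpl24 averaged 0.684 CPM. The file headers show no option to count reads that map to several places, and reads of 50 bases from genes with near-identical processed copies can map to several places. Of the 82 members, 59 have at least 1 named pseudogene copy among 281 in the files. Rps6 has 4 and Rpl24 has 0. Only symbols with -ps were counted as copies, so copies under other names are missed. The median level was 112 CPM per kb for the 21 members with counts and no named copy, and 15.7 for the 21 with 5 or more copies. Across the 79 members with counts, Spearman's rho between number of copies and level per kb was -0.279, a description over genes that share libraries. How many reads were lost this way was not tested, and levels of members with many copies are uncertain for this reason.

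The paralogs added little. Rpl10l, Rpl39l and Rps4l had 0 counts in all 18 libraries. Rpl32l had 3 counts and Rpl6l 17 counts over all of them, and none of these 5 passed the filter on low counts. Rpl3l, the muscle paralog of Rpl3, had 162 counts in all and passed in HPCLSK only. This left 76 members tested in HPC7 and 77 in HPCLSK. A member that passes below has an adjusted p under 0.05 by the quasi-likelihood test of edgeR, adjusted by Benjamini-Hochberg over all genes tested.

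The clearest movement was in HPCLSK with STAT3Y640F. Ribosomal protein mRNA fell across both subunits: 41 of 77 members were lower than with empty vector and 0 were higher. Of all 12552 genes tested in this comparison, 28.0% were lower and 30.6% were higher. The falls were small, with a median log2 fold change over the members of -0.21 against -0.01 over all genes tested, and the middle 50% of members lay between -0.32 and -0.13. The large subunit had 23 of 47 lower and the small subunit 18 of 30.

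The summed share of counts fell as well. It is a share of library totals, without the TMM factors, which were 0.915 to 0.955 in the HPCLSK Y640F libraries and 1.01 in those of empty vector. Scaling by totals shifted the median log2 fold change of all genes in this comparison by -0.12, so the share and the fold changes above are on unlike scales. In empty vector libraries it was 2.11, 1.98 and 2.03% (2.04% ± 0.0633, SD, n = 3). STAT3 libraries had 1.95, 2.05 and 1.88% (1.96% ± 0.0861), and Y640F libraries 1.45, 1.71 and 1.69% (1.62% ± 0.146). All 3 Y640F libraries were below all 6 others of the line, and the STAT3 range overlapped that of empty vector. In HPC7 the share was 1.53% ± 0.0535 for empty vector, 1.44% ± 0.0187 for STAT3 and 1.48% ± 0.0220 for Y640F (SD, n = 3 each). There the 3 STAT3 libraries, at 1.42, 1.45 and 1.45%, lay below the 3 empty vector libraries, at 1.48, 1.59 and 1.52%, and the Y640F libraries overlapped those of empty vector. The mitochondrial ribosomal proteins, a separate set of 78 genes, held 0.302 to 0.325% of counts over the 9 HPCLSK libraries.

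**Figure D1:**
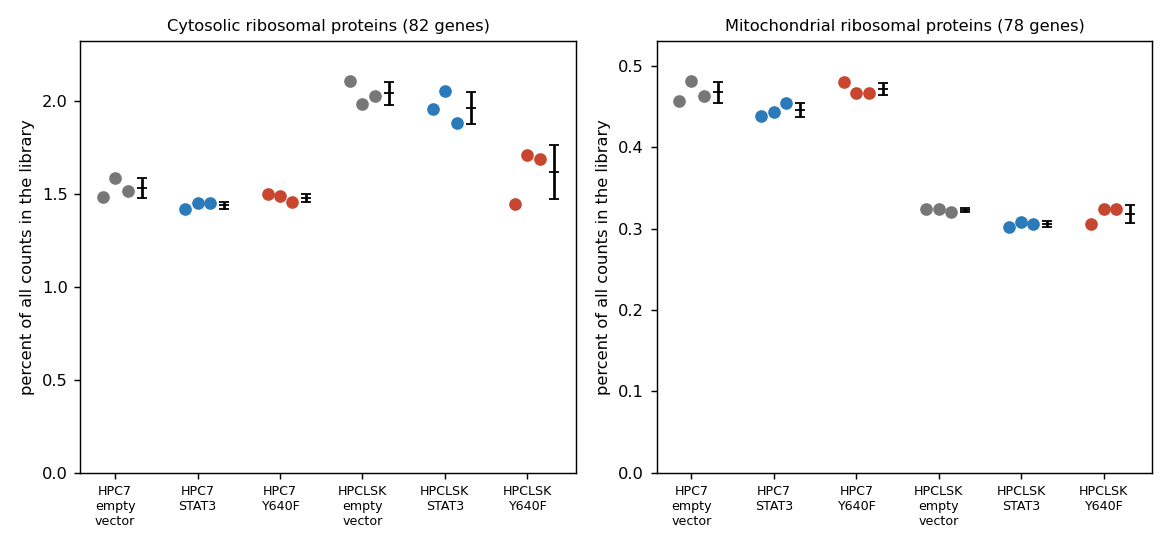
Share of all counts, in percent of library totals without TMM factors, held by the 82 cytosolic ribosomal protein genes and by the 78 mitochondrial ones in each of the 18 libraries (points), with group means and SD. The 3 HPCLSK Y640F libraries sit between 1.45 and 1.71%, below the other HPCLSK libraries at 1.88 to 2.11%, and the HPC7 groups lie between 1.42 and 1.59%.

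Rps24, a small-subunit protein needed for processing of the small ribosomal RNA precursor, had the lowest adjusted p among the members named in this comparison. The empty vector libraries had 342, 309.9 and 342 CPM, the STAT3 libraries 316, 332 and 307, and the Y640F libraries 227, 251 and 242. The Y640F libraries were all below the other 6, which overlapped each other. The log2 fold change of Y640F against empty vector was -0.45 ± 0.06 (SE), with an adjusted p of 7.3e-05.

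Rps14 and Rps19 are small-subunit proteins whose loss is known to block erythroid maturation. Rps14 measured 658, 621 and 622 CPM with empty vector and 418, 516 and 492 with Y640F, with no overlap (log2 fold change -0.40 ± 0.08, adjusted p = 0.0015). Rps19 measured 332, 317 and 329 CPM with empty vector and 251, 281 and 269 with Y640F, again with no overlap (-0.28 ± 0.06, adjusted p = 0.0022). In Rps14 and Rps19 alike, the Y640F library of replicate 1 was the lowest of the line.

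The X-linked members gave 3 falls out of 4. Rps4x, a small-subunit protein, measured 383, 362 and 365 CPM with empty vector and 254, 304 and 287 with Y640F (log2 fold change -0.38 ± 0.07, adjusted p = 0.001). Rpl39, a small protein of the exit tunnel, measured 118, 100.1 and 104 against 81.9, 81.8 and 79.0 (-0.40 ± 0.07, adjusted p = 0.00048). Rpl36a went from 5.88, 5.57 and 5.90 CPM to 3.30, 4.83 and 3.87 (-0.52 ± 0.16, adjusted p = 0.017). In each of these 3 genes the groups did not overlap. Rpl10, a large-subunit protein that joins late in assembly, did not pass: 40.7, 35.2 and 30.6 CPM with empty vector and 35.9, 36.1 and 41.3 with Y640F overlapped.

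Rpl22, a large-subunit protein with a known role in lymphoid development, measured 439, 420.0 and 439 CPM with empty vector and 303, 354 and 356 with Y640F (log2 fold change -0.35 ± 0.07, adjusted p = 0.0016). Its paralog Rpl22l1, outside the rule, fell as well, from a mean of 55.9 to 41.3 CPM (-0.43 ± 0.06, adjusted p = 7.8e-05). Rpl4, the member with most counts, went from 3028, 2918 and 3000.2 CPM to 2316, 2504 and 2416 (-0.30 ± 0.06, adjusted p = 0.0012). For Rpl22 and Rpl4, every Y640F library was below every empty vector library of the line.

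The largest folds belonged to members with few counts. Rpl3l fell by 1.58 ± 0.36 on the log2 scale (adjusted p = 0.0035), from 0.967, 1.29 and 0.925 CPM to 0.270, 0.327 and 0.441, and was the only member to pass with a fold of at least 2, against 6.57% of all genes. Rps23, a protein of the decoding centre, went from 5.88, 5.98 and 5.32 CPM to 2.63, 3.79 and 3.48 (-0.78 ± 0.16, adjusted p = 0.0016). Rpl19 went from 2.68, 2.99 and 2.02 CPM to 1.42, 2.02 and 1.76, where the groups touch (-0.56 ± 0.21, adjusted p = 0.044). Rpl3l with Y640F lies near the 3-count floor, and the folds of these genes carry wide errors.

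Some members did not pass. The stalk proteins Rplp0, Rplp1 and Rplp2 had log2 fold changes of -0.05, 0.02 and -0.13. Rpl5 and Rpl11, which together bind Mdm2 when ribosome assembly fails, both stood at -0.17, with adjusted p of 0.07 and 0.18. Rps6 stood at -0.17 and Rpsa, a small-subunit protein related to the laminin receptor, at -0.13. A fall was thus not detectable in every member at this depth. Of the 77, 44 members had no overlap between the 3 and 3 libraries in the lower direction and 1 in the higher. Over all genes, 65.9% did not overlap in one direction or the other.

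**Figure D2:**
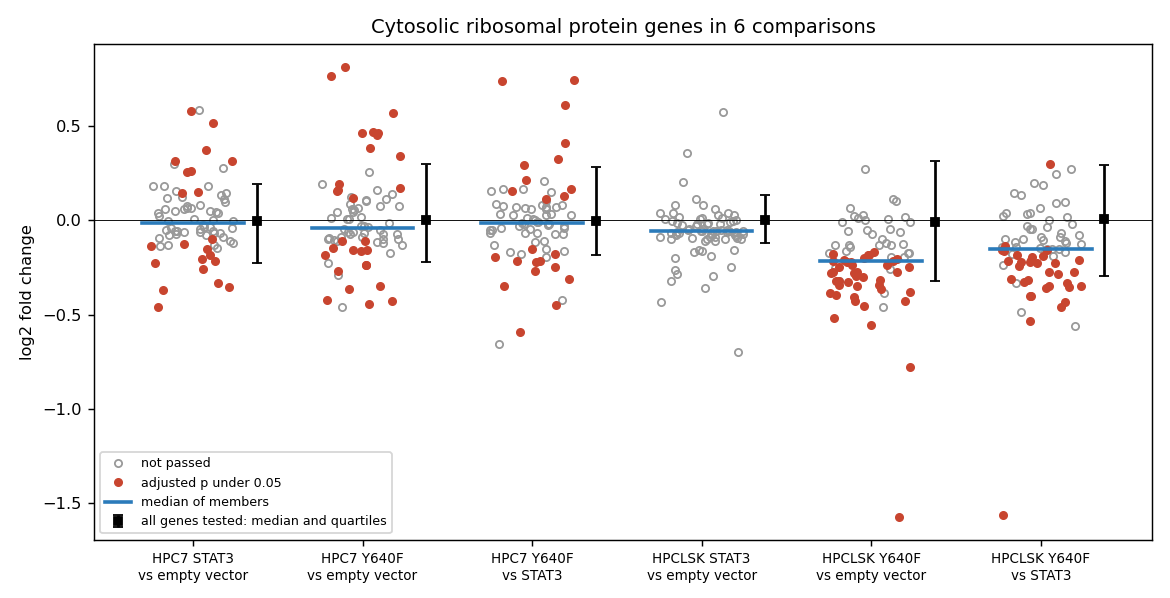
Log2 fold change of each tested member in each vector comparison, filled red where it had an adjusted p under 0.05 and open grey where it did not. A blue line marks the members' median, and a black square and bar the median and quartiles of all genes tested. In HPCLSK with Y640F the members' median is -0.21, while in HPC7 the members spread to both sides of 0.

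The number of calls varied with the level of the gene. Of the members at 100 CPM or more, 25 of 34 were lower (median -0.22). Between 5 and 100 CPM it was 13 of 34 (median -0.19), and below 5 CPM 3 of 9. The medians differed less than the counts, and the median standard error rose from 0.07 in the first of these classes to 0.09 and 0.24 in the others. Members with a pyrimidine run of at least 8 anywhere in the window around the start had 13 of 23 lower (median -0.21) and members with a shorter run 18 of 34 (median -0.20). Members without a named pseudogene copy had 11 of 19 lower and members with 5 or more copies 11 of 21, with a median of -0.22 in both. No difference between these classes was tested, and the shares of all genes in the same classes were not counted. The 28.0% of all genes that were lower is a share over all levels.

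The library of replicate 1 carried more of the movement than the others. Of the 77 members, 66 were below all 3 empty vector libraries in Y640F replicate 1, 51 in replicate 2 and 54 in replicate 3. Without that library and the empty vector library of replicate 1, 33 members passed, 32 lower and 1 higher (Rpl27, 0.36 ± 0.12, adjusted p = 0.019), and the median was -0.15. With library totals in place of TMM, 54 members were lower and the median was -0.33, while the median of all genes shifted by -0.12. The shares of all genes passing under these 2 settings are not given here, so these counts cannot be set against them.

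**Figure D3:**
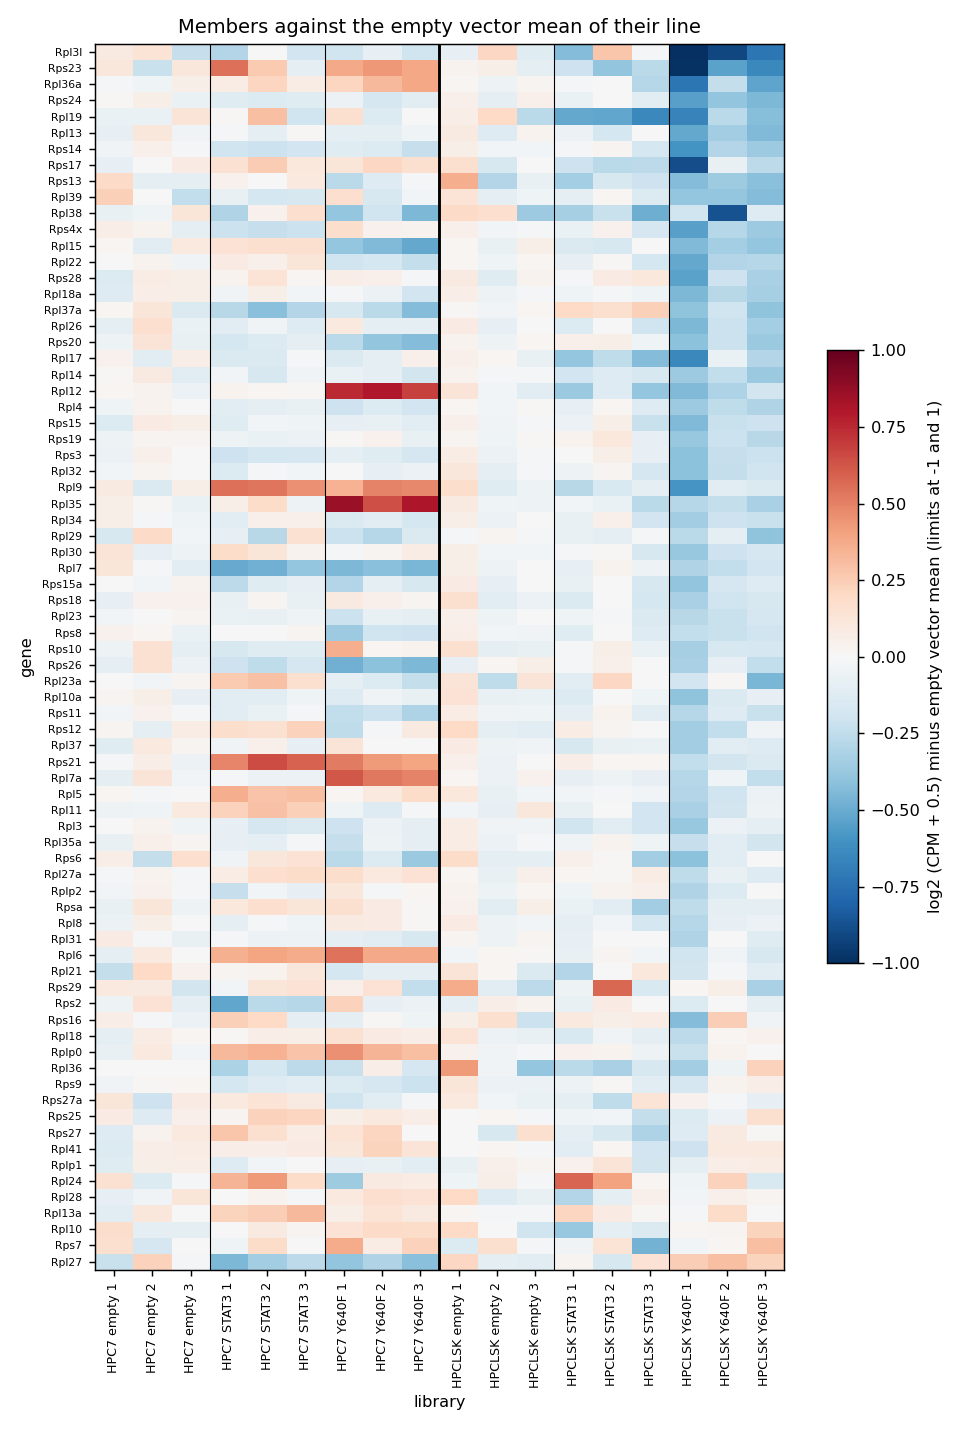
Log2(CPM + 0.5) of 76 of the 77 tested members in every library, less the mean of the 3 empty vector libraries of the same line, with the colour scale limited to -1 and 1 and genes ordered by their value in HPCLSK with Y640F. The 3 HPCLSK Y640F columns are low over most genes, and replicate 1 is lowest, with 66 of 77 members below every empty vector library of the line. That count was not made over all genes.

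Other cell-type markers moved in the same libraries. In HPCLSK the summed CPM of the 12 stem and progenitor markers was 5641 to 6086 with empty vector, 4933 to 5332 with STAT3 and 3572 to 3980 with Y640F. The 6 monocyte markers summed to 155 to 232, 226 to 462 and 923 to 1739. The 5 megakaryocyte markers summed to 1187 to 1691, 792 to 903 and 460.4 to 714. The 5 mast cell and basophil markers summed to 3317 to 4492, 2859 to 3052 and 930.1 to 1308, and the 7 granulocyte markers to 7145 to 11145, 12061 to 17526 and 8436 to 11949. The sums hide opposite moves between empty vector and Y640F. Of the mast cell markers only Cpa3 fell (means of 3425 and 721 CPM), while Fcer1a (254 and 302) and Mcpt8 (61.1 and 89.6) were higher. Of the granulocyte markers S100a8 rose (203 and 4632) and Mpo fell (7923 and 4677). Of the stem and progenitor markers Cd34 fell (2345 and 983), while Ptprc (343 and 570) and Spi1 (171 and 426) rose. The part of these markers in the fall of the members was not tested, and in bulk RNA fewer cells of a type and less RNA per cell cannot be told apart.

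Against the STAT3 vector of the same line, Y640F again had lower members: 32 of 77 were lower (25.2% of all genes) and 1 was higher (28.6% of all genes), with a median of -0.15 against 0.01. This comparison shares its Y640F libraries with the one against empty vector, so the counts are not independent. Rpl37a, a zinc-binding protein of the large subunit, measured 66.6, 65.0 and 68.5 CPM with STAT3 and 43.7, 50.4 and 43.8 with Y640F (-0.53 ± 0.06, adjusted p = 5.9e-05). Rps28, a small-subunit protein near the mRNA exit, stood at -0.40 ± 0.09 (adjusted p = 0.0029). Rpl10 was the member that rose, from 27.0, 33.2 and 31.8 to 35.9, 36.1 and 41.3 CPM (0.30 ± 0.11, adjusted p = 0.045). Without the STAT3 library of replicate 2, 20 members passed.

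With the STAT3 vector itself, HPCLSK members did not move detectably from empty vector. Of 77, 0 passed in either direction by edgeR, while 7.70% of all genes were higher and 6.37% lower. DESeq2 also called 0, and 5 members had an unadjusted p under 0.05. The median was -0.06 against 0.00 over all genes, and it ran from -0.10 (without STAT3 replicate 2) to -0.03 (without STAT3 replicate 3) when 1 library was left out. Rpl14 (-0.16 ± 0.05, adjusted p = 0.053) and Rpl37a were nearest, on either side of 0, and are named after their values were seen. Rpl14, a large-subunit protein, measured 205.6, 198 and 198 CPM with empty vector and 176, 183 and 179 with STAT3, with no overlap. Rpl37a stood at 58.5, 56.8 and 58.7 CPM with empty vector and 66.6, 65.0 and 68.5 with STAT3, with no overlap either (0.21 ± 0.06, adjusted p = 0.055). Rpl37a passed with size factors of the RLE method (adjusted p = 0.049) and without the empty vector and Y640F libraries of replicate 1 (adjusted p = 0.04).

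In HPC7 the members moved in both directions. With STAT3, 9 of 76 were higher (23.3% of all genes) and 13 lower (25.3% of all genes), with a median of -0.01. With Y640F, 14 were higher (29.5%) and 15 lower (27.8%), with a median of -0.04. No member reached a fold of 2, while 7.22 and 8.18% of all genes did. In both comparisons the higher members were mostly of the large subunit, 8 of 9 and 12 of 14, and 8 of 30 small-subunit members were lower in each. Most of the 76 tested members are of the large subunit, all but these 30. Subunit also overlaps with chromosome. Of the 12 tested members on chromosomes 1, 2 and 5, which are taken up below, only Rps21 is of the small subunit. A difference between subunits was not tested.

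With STAT3 the largest rise was in Rps21, a small-subunit protein, from 143, 151 and 139 CPM to 203, 228 and 217 (log2 fold change 0.58 ± 0.05, adjusted p = 5.7e-07). Rpl9, a large-subunit protein near the factor-binding site, rose from 21.8, 18.5 and 21.4 to 30.4, 30.0 and 28.3 CPM (0.52 ± 0.07, adjusted p = 5.2e-05). Neither gene's groups overlapped. Rpl6 (0.37), Rpl5 (0.32) and the stalk base Rplp0 (0.32) rose by less, and Rplp0 went from 439, 495 and 453 to 577, 587 and 562 CPM.

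The falls with STAT3 were led by Rpl7, a large-subunit protein, from 728, 660.4 and 623 CPM to 472, 479.7 and 512, with no overlap (-0.46 ± 0.05, adjusted p = 1e-05). Rpl27 (-0.37 ± 0.09), Rps2 (-0.36 ± 0.09), Rpl37a (-0.33 ± 0.08) and Rpl36 (-0.26 ± 0.09, adjusted p = 0.024) followed. Rps14 fell by 0.20 and Rps4x by 0.22, and Rpl11 rose by 0.26. Rps6, Rps19, Rplp1, Rplp2, Rpsa, Rpl10, Rpl22 and Rpl39 did not pass, with log2 fold changes between -0.14 and 0.14.

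With Y640F the 4 members on chromosome 2 all rose in HPC7. Rpl35, a protein at the exit tunnel, measured 12.8, 12.4 and 11.7 CPM in empty vector libraries, 12.9, 14.1 and 11.8 in STAT3 libraries, and 22.8, 19.5 and 22.0 in Y640F libraries (0.82 ± 0.08 against empty vector, adjusted p = 1.8e-06). Rpl12, at the base of the stalk, measured 35.8, 36.3 and 34.0, then 36.3, 35.8 and 35.6, then 59.6, 61.8 and 56.9 (0.77 ± 0.05, adjusted p = 2.4e-08). Rpl7a measured 38.6, 45.2 and 40.5, then 41.0, 39.6 and 39.6, then 63.8, 59.7 and 58.5 (0.57 ± 0.06, adjusted p = 1.5e-06). In these 3 genes the STAT3 libraries lay at the empty vector level and only the Y640F libraries were high. Rps21 differed in that both vectors had it high, with 207, 194 and 189.5 CPM with Y640F (0.47 ± 0.05, adjusted p = 3.1e-06). As printed above, the longest runs of pyrimidines in the windows around these 4 starts ranged from 7 to 21 bases.

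Other members moved off chromosome 2. Rps23 rose by 0.47 ± 0.19 (adjusted p = 0.044), from 2.39, 1.80 and 2.39 to 2.98, 3.11 and 3.00 CPM, while in HPCLSK it fell. Rpl15, a large-subunit protein mutated in some inherited anaemias, fell from 42.5, 38.7 and 45.0 CPM to 31.9, 30.8 and 29.3 with Y640F, while STAT3 had 46.6, 47.1 and 46.9 (-0.44 ± 0.06, adjusted p = 2e-05). Rps26, at the mRNA exit channel, fell from 251, 298 and 258 to 192, 202 and 196 CPM (-0.43 ± 0.05, adjusted p = 1.5e-05). Rpl7 (-0.42 ± 0.05), Rpl27 (-0.37 ± 0.09) and Rps20 (-0.35 ± 0.06) fell too. Of the members named in every comparison, Rplp0 (0.38) and Rpl10 (0.19) rose and Rpl22 (-0.18) and Rps14 (-0.14) fell with Y640F.

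Y640F against STAT3 in HPC7 gave 11 higher (27.1% of all genes) and 12 lower (24.1%), with a median of -0.01. Rpl12 (0.75), Rpl35 (0.74) and Rpl7a (0.62) again led the rises, followed by Rps2 (0.41) and Rps4x (0.33). Rpl15 led the falls, at -0.60 ± 0.06 (adjusted p = 1.3e-06), and Rpl23a (-0.45), Rps6 (-0.35, adjusted p = 0.031), Rpl11 (-0.31) and Rpl22 (-0.27) followed. Rpl5 fell by 0.19 and Rplp2 rose by 0.17. These share their libraries with the 2 comparisons against empty vector.

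Several HPC7 members moved in the direction of the other genes on their chromosome. With STAT3, the 5 members on chromosome 5 (Rpl9, Rpl5, Rplp0, Rpl6, Rpl21) had a median of 0.32 and the other tested genes of that chromosome 0.36. The 3 members on chromosome 1 (Rpl7, Rpl31, Rpl37a) had a median of -0.33 and the other genes -0.35. On chromosome 2 the members stood at 0.05 and the other genes at 0.03, with Rps21 apart at 0.58.

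With Y640F, chromosome 2 had medians of 0.67 for the members and 0.47 for the other genes, chromosome 5 of 0.38 and 0.33, and chromosome 1 of -0.27 and -0.34. Of the members that passed with a log2 fold change beyond 0.4 in either direction, 3 of 3 with STAT3 and 7 of 10 with Y640F lay on these 3 chromosomes, which hold 12 of the tested members. The chromosomes were picked with results of these data known, and the share over all genes is not given here. Rps21 with STAT3 is in this count but did not follow chromosome 2, as it kept 0.55 less the chromosome median. Less the median of its chromosome, 15 of 22 passing members with STAT3 and 20 of 29 with Y640F kept at least 50% of their log2 fold change in its direction. Less that median, Rpl5 (-0.04) and Rplp0 (-0.04) with STAT3 and Rps21 (-0.01) with Y640F no longer stood above 0, and Rpl37a no longer stood below 0 with STAT3 (0.01) or Y640F (0.07). In HPCLSK with Y640F it was 41 of 41 that kept at least 50%. The part of the chromosomes in the HPC7 results was not tested further.

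**Figure D4:**
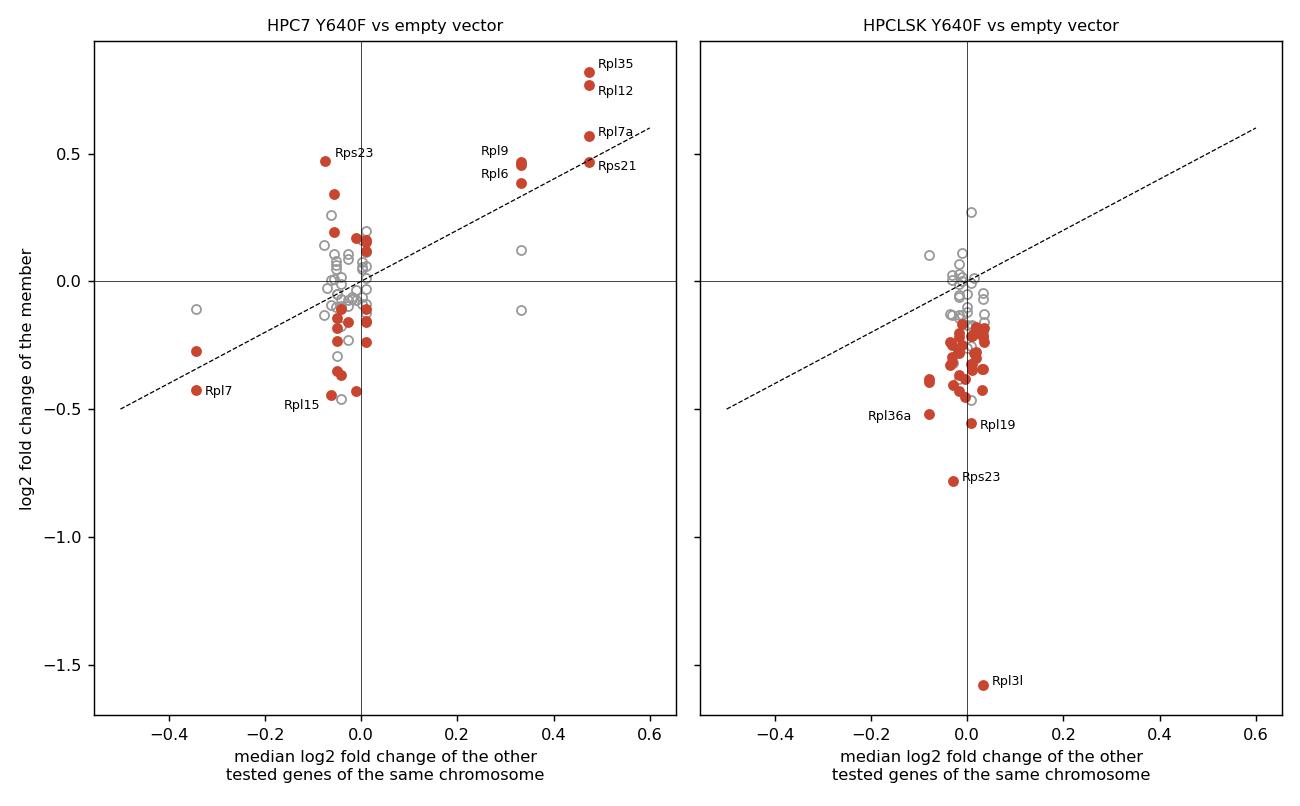
Log2 fold change of each member against the median of the other tested genes on its chromosome, for Y640F against empty vector in HPC7 and in HPCLSK. Filled points passed the test and the dashed line marks equality. In HPC7 many members of chromosomes 1, 2 and 5 lie near the line (medians of 0.67 and 0.47 on chromosome 2), but Rpl21 stands at -0.11 against 0.33. In HPCLSK most members lie below the line.

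Between the lines, with empty vector in both, the members differed more often than between vectors. Of 77, 44 were higher in HPCLSK (41.6% of all genes) and 18 lower (39.0%), with a median of 0.29 against 0.04. With a fold of at least 2, 10 were higher (22.8% of all genes) and 4 lower (13.6%). Small-subunit members were higher more often than lower, 19 against 4 of 30, and large-subunit members 25 against 14 of 47. Cell-type markers differed between the lines too. Summed CPM with empty vector in HPC7 and HPCLSK were 3606 to 3823 and 5641 to 6086 for the 12 stem and progenitor markers, 331 to 669 and 7145 to 11145 for the 7 granulocyte markers, and 324 to 455 and 3317 to 4492 for the 5 mast cell and basophil markers. Within the stem and progenitor sum, Cd34 was higher in HPCLSK (means of 609 CPM in HPC7 and 2345 in HPCLSK) and Kit lower (1282 and 744). The part of these markers in the difference was not tested.

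Rpl34, a large-subunit protein, differed most. It measured 16.6, 15.8 and 15.4 CPM in HPC7 and 262, 241 and 249.6 in HPCLSK, a log2 fold change of 3.97 ± 0.07 (adjusted p = 1.5e-19). Rpl29, a large-subunit protein first described as binding heparin, measured 3.01, 3.98 and 3.35 against 37.0, 38.0 and 37.1 (3.45 ± 0.11), and Rpl30 20.1, 17.3 and 17.7 against 131, 123 and 123 (2.78 ± 0.07). The vectors left these apart: over all 9 libraries of a line, Rpl34 ran from 14.1 to 16.6 CPM in HPC7 and from 197 to 262 in HPCLSK. Rpl3l (2.54 ± 0.39), Rps2 (1.59 ± 0.09), Rpl39 (1.47 ± 0.10) and Rplp0 (1.18) were at least 2-fold higher in HPCLSK as well. Rps23 (1.37), and Rpl3 (1.36) and Rpl26 (1.16), which are named after their values were seen, complete the 10.

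In the other direction, Rpl27 measured 25.8, 35.5 and 29.9 CPM in HPC7 and 15.5, 12.5 and 12.3 in HPCLSK (-1.19 ± 0.11, adjusted p = 8e-09). Rpl21 (-1.16), Rps6 (-1.14 ± 0.16) and Rpl28 (-1.13) were likewise at least 2-fold lower, and Rps29 stood at -0.95 ± 0.28. Rps6 measured 5.67, 4.49 and 6.12 CPM against 2.90, 2.32 and 2.31, with no overlap. Of the members named throughout, Rps4x (0.92), Rps19 (0.74), Rpl22 (0.64), Rps14 (0.62), Rpl5 (0.33) and Rpl10 (0.31) were higher in HPCLSK, and Rpl11 (0.17), Rplp1 (-0.14), Rplp2 (-0.06) and Rpsa (0.04) did not pass.

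Named pseudogene copies also differed between the lines. Together they held 0.0283% of counts in HPC7 and 0.0151% in HPCLSK with empty vector. Rps13-ps1 averaged 43.3 CPM in HPC7 and had 0 counts in HPCLSK, while Rps13-ps2 averaged 3.04 CPM in HPCLSK and had 0 counts in HPC7. Rplp0-ps1 averaged 23.4 against 0.230 CPM, Rps15a-ps8 14.2 against 0.0396 and Rpl3-ps1 11.4 against 0.255. For Rpl34, Rpl29 and Rpl30 the copies summed to 2.21, 0.00971 and 0.235 CPM in HPC7. Reads that map to several places are not in these counts, so the copies do not show how many reads a parent gene lost. Levels of members with copies are uncertain between the lines, and whether mapping differed between the lines for any member was not tested.

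**Figure D5:**
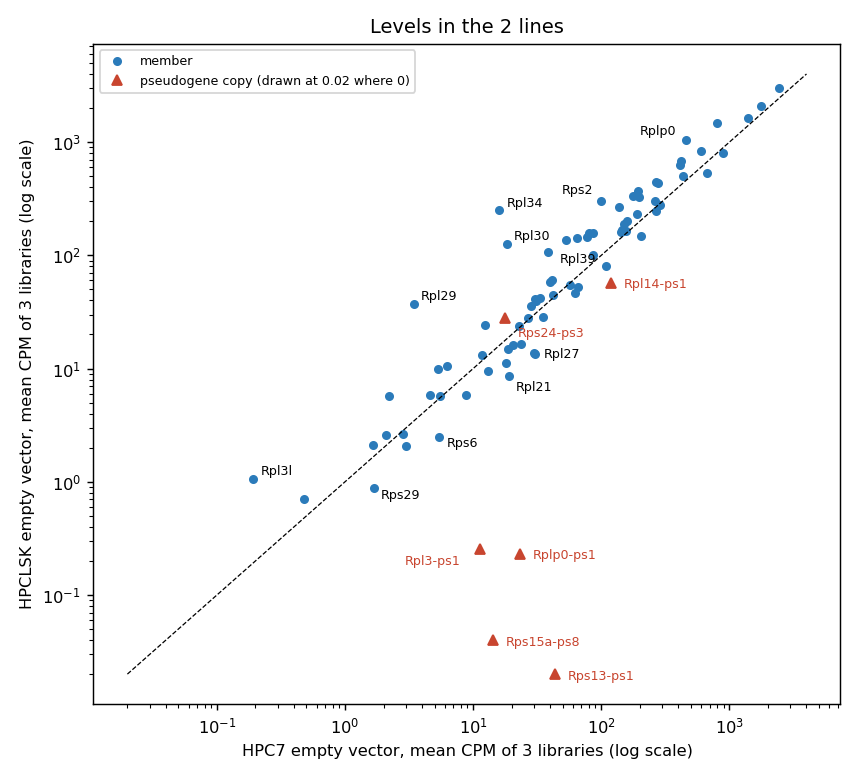
Mean CPM with empty vector in HPC7 (x axis) and HPCLSK (y axis), both log scales, for tested members as circles and for some named pseudogene copies as triangles, drawn at 0.02 where they had 0 counts; the dashed line marks equal levels. Rpl34 (16.0 and 251 CPM), Rpl29 and Rpl30 lie farthest above the line among the members.

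The vector effects differed between the lines for some members, tested as an interaction over the 18 libraries. For STAT3 against empty vector, 3 members had a more positive effect in HPCLSK (16.5% of all genes) and 8 a more negative one (13.9%), with a median difference of -0.07 against 0.01 (-0.01 without HPCLSK empty vector replicate 1). For Y640F, 3 were more positive (25.8% of all genes) and 28 more negative (22.9%), with a median of -0.15 against 0.02. Both directions and all values are differences between log2 fold changes, HPCLSK less HPC7, and both use the same empty vector libraries. The Y640F count was 20 (4 and 16) without the HPCLSK empty vector and Y640F libraries of replicate 1. The STAT3 count was 7 without the HPC7 STAT3 library of replicate 1. With library totals only, the Y640F difference had 41 passing members (1 and 40), while the median of all genes shifted by -0.14. The shares of all genes passing under these alternatives are not given here.

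The most negative of these differences for Y640F were Rps23 (-1.24), Rpl35 (-1.08) and Rpl12 (-1.06), all genes that rose in HPC7 and fell in HPCLSK. Rpl12, for example, went from 35.3 ± 1.19 to 59.4 ± 2.42 CPM between empty vector and Y640F in HPC7, and from 28.8 ± 2.46 to 23.1 ± 2.11 in HPCLSK (SD, n = 3). Rpl27 (0.65), Rps26 (0.23) and Rpl7 (0.20) differed the other way. Less the median difference of the genes on their chromosome, Rpl35 stood at -0.68, Rpl12 at -0.65 and Rpl7 at -0.14, where the medians were -0.41 on chromosome 2 and 0.33 on chromosome 1. Over all 6 vector comparisons, 16 of the 77 members passed in none, among them Rplp1, Rpsa, Rpl3 and Rps27a, which encodes a ubiquitin fusion.

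Genes around the ribosome were counted from lists chosen with earlier results of these data known. Their counts are to be read against all genes tested. In HPCLSK with Y640F against empty vector, where 28.0% of all genes were lower and 30.6% higher, of 19 translation factors and other TOP mRNAs 8 were lower and 2 higher, with a median of -0.12. Pabpc1, the poly(A)-binding protein, stood at -0.27 and the initiation factor subunit Eif3e at -0.31, while Eef1d stood at 0.22. Of 11 snoRNA host genes 5 were lower and 0 higher (median -0.19), and of 26 subunits and factors of RNA polymerases I and III 12 were lower and 1 higher (median -0.11). Of the 39 ribosome biogenesis genes, 7 were lower and 4 higher (median -0.06), both smaller shares than over all genes. Of the mitochondrial ribosomal proteins, 21 of 77 were higher and 7 lower (median 0.10), and neither share is above that of all genes. Among ribosomal genes outside the symbol rule, 4 of 8 were lower, Rack1 (-0.27) and Rpl22l1 among them, and 0 higher.

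Regulators were counted in the same comparison. Of 20 genes of mTORC1 and TOP mRNA control, 10 were higher and 5 lower (median 0.11), against 30.6 and 28.0% of all genes. Larp1, which binds the TOP motif, rose from a mean of 343 to 441 CPM (0.37 ± 0.04, adjusted p = 2.5e-05), and Deptor, an inhibitor of mTOR, fell by 1.38. Of 11 MYC network genes 5 were higher and 5 lower, with Myc at -0.68 ± 0.17 (adjusted p = 0.005), Mycn at -2.15 and the antagonist Mxd1 at 1.61. The 10 genes of ribosomal stress and p53 had 3 higher and 4 lower, and the 17 ribosomal chaperones 2 and 2.

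In HPC7 with Y640F, where 29.5% of all genes were higher and 27.8% lower, 11 of 19 translation factors were lower and 0 higher (median -0.13), Eef1b2 (-0.35) and Npm1 (-0.32) among them. Ribosome biogenesis had 11 of 39 higher and 13 lower, and the mitochondrial ribosomal proteins 20 of 77 higher and 25 lower, shares near those of all genes. With STAT3 in HPC7 (23.3% of all genes higher, 25.3% lower), 7 of 19 translation factors were lower and 0 higher, and biogenesis had 12 of 39 higher and 6 lower. Between the lines, where 41.6% of all genes were higher and 39.0% lower, ribosome biogenesis ran against the ribosomal proteins: 36 of 39 were lower in HPCLSK and 0 higher, with a median of -0.79 (Wdr43 -1.65, Nolc1 -1.32). The mitochondrial ribosomal proteins had 62 of 77 lower and 7 higher (median -0.54), and the polymerase subunits 20 of 26 lower and 2 higher. Mycn differed by -4.83, and Rack1 was higher in HPCLSK by 0.70.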

How the data were processed

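The deposited values are raw counts of reads per gene. The authors used featureCounts 1.5.1 at strand setting 2 over exons, per the file headers, and per the submitters' processing notes alignment was with STAR after Trimmomatic, on GRCm38/mm10 with GENCODE M13. Reads were 50 bp single-end. The series text and the sample protocols name different library kits. The series' 12 chromatin samples, of 30 samples in all, were not analysed here. Symbols came from gene IDs, and 310 genes had none.

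Comparisons used edgeR 4.0.16 in R 4.3.3 (TMM factors, the filterByExpr filter, quasi-likelihood test, Benjamini-Hochberg adjustment over all genes tested), on the 9 libraries of a line or on all 18 for differences between lines. Fold changes are fitted log2 values with standard errors. CPM were scaled over 18 libraries. DESeq2 1.42.0, other scalings and filters, a replicate block and left-out libraries were alternatives. On simulated data for HPCLSK with Y640F (12384 genes, 97 changed at each size), 81.4% of genes changed by 1 on the log2 scale and 11.3% of those changed by 0.3 were recovered. In the real comparison 28.0% of all genes were lower and 30.6% higher. With so few changed genes the adjustment was stricter in the simulation, so these shares do not give the sensitivity of the real comparison. Same-numbered libraries were not correlated (r -0.114 to 0.0796 in HPC7, -0.200 to 0.0941 in HPCLSK), so the numbers were not taken as pairs.

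The members, gene lists and tests were chosen with earlier results of these data known. Named members are the up to 5 with the largest and the up to 5 with the smallest log2 fold change among those passing each comparison (3 for differences between lines), a standing set of 13 (Rps6, Rps19, Rps14, Rpl5, Rpl11, Rplp0, Rplp1, Rplp2, Rpsa, Rps4x, Rpl10, Rpl22, Rpl39), the 5 highest and lowest per kb, the 5 with the widest range of group means, and those failing the filter. Other members named were picked as examples after their values were seen. Of other genes, up to 3 per list and direction and a standing set were eligible. Some items that this rule takes are not reported here.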

Additional observations from a re-analysis of the deposited data

Results flagged for a closer look

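Several members responded to a vector differently in the lines, by an interaction term with adjusted p under 0.05 (edgeR's quasi-likelihood test). Values are the log2 fold change against empty vector in HPCLSK less that in HPC7. For STAT3, Rpl37a (0.53), Rpl7 (0.43) and Rps2 (0.36) had the more positive effect in HPCLSK, where none of them passed and where all 3 had fallen in HPC7. Rpl9 (-0.69), Rps21 (-0.54), Rpl6 (-0.40), Rpl5 (-0.34), Rpl11 (-0.34) and Rplp0 (-0.31) had the more negative effect, and each had risen in HPC7. Less the median difference of the genes on their chromosome, Rpl7 (-0.00021), Rpl5 (0.00814) and Rplp0 (0.0440) turned sign, Rpl37a stood at 0.11, Rpl9 at -0.34 and Rpl6 at -0.05.

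For Y640F, Rpl27 (0.65), Rps26 (0.23) and Rpl7 (0.20) had the more positive effect in HPCLSK, and all 3 had fallen in HPC7. The more negative effects were in Rps23 (-1.24), Rpl35 (-1.08), Rpl12 (-1.06), Rps4x (-0.48), Rplp0 (-0.43), Rpl39 (-0.39), Rpl5 (-0.28), Rps19 (-0.28), Rpl30 (-0.28) and Rps14 (-0.25). Of these, Rps23, Rpl35, Rpl12 and Rplp0 had risen in HPC7. Less the chromosome median, Rpl7 (-0.137) and Rpl5 (0.0123) turned sign, and Rpl35 stood at -0.68 and Rpl12 at -0.65.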

How the results depend on the processing

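The counts of passing members held within 1.5 times under most alternatives. The shares of all genes passing under each alternative are not given beside them. For HPCLSK with STAT3 against empty vector, where 0 passed, 1 passed with RLE size factors and 1 without the HPCLSK empty vector and Y640F libraries of replicate 1. Leaving out 1 library at a time gave 20 to 35 passing members for HPCLSK Y640F against STAT3, and 7 to 11 for the STAT3 difference between lines. For the Y640F difference between lines, 20 passed without the pair of replicate 1 libraries, and the members' median was -0.29 with library totals only. Without the 5 members with most counts, the mean summed share was 0.792, 0.758 and 0.776% in HPC7 (empty vector, STAT3, Y640F) and 1.13, 1.09 and 0.904% in HPCLSK. With named pseudogene copies it was 1.47% (STAT3) and 1.51% (Y640F) in HPC7. Less the chromosome median, the sign turned for Rpl5 (-0.0409), Rplp0 (-0.0434) and Rpl37a (0.0115) with STAT3 in HPC7 and for Rps21 (-0.0076) with Y640F among the members named in each comparison. In the differences between lines it turned for Rpl7 (-0.00021), Rpl5 (0.00814) and Rplp0 (0.0440) with STAT3, and for Rpl7 (-0.137) and Rpl5 (0.0123) with Y640F. With the replicate number as a block, 20, 29 and 22 members passed in the HPC7 comparisons (STAT3 and Y640F against empty vector, Y640F against STAT3), 0, 34 and 23 in HPCLSK, 62 between the lines, and 8 and 27 for the differences. Of 201 tested values of named members, 5 lost their call with DESeq2, 8 with the block, and 0 with RLE size factors. In simulated data, changes of 0.3 on the log2 scale were recovered for 55.7% of genes in HPC7 with Y640F, 11.3% in HPCLSK with Y640F and 33.7% between the lines. Only 97, 97 and 98 genes were changed by that size there, far fewer than passed in the data, so the adjustment was stricter than in the real comparisons.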
